A study of Homo sapiens with 27 samples.

Results

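The Notch receptors and ligands were followed in poly-A RNA-seq of 9 human cell lines. The family was taken as 10 of the 34584 genes matched in the tables. They were the receptors NOTCH1, NOTCH2, NOTCH3 and NOTCH4, the ligands JAG1, JAG2, DLL1, DLL3 and DLL4, and the target gene HES1. Transcript values were summed to these genes by their gene IDs in the GENCODE 29 annotation. The genes were chosen with earlier results of these data known. All 10 genes were present in every table. Of the 10, 9 were among the 17220 genes with enough counts to be tested, and NOTCH4 was not. On GRCh38 the receptor genes lie at chr9:136494433-136545786 (NOTCH1), chr1:119911553-120069626 (NOTCH2), chr19:15159038-15200981 (NOTCH3) and chr6:32194843-32224067 (NOTCH4), all on the minus strand. The ligand genes lie at chr20:10637684-10673999 (JAG1), chr14:105140981-105168824 (JAG2) and chr6:170282206-170306565 (DLL1) on the minus strand, and at chr19:39498895-39508481 (DLL3) and chr15:40929333-40939073 (DLL4) on the plus strand. HES1 lies at chr3:194136145-194138732 on the plus strand.

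Each line was sampled as 3 libraries, which the design text calls biological replicates, and no line was treated with an agent. By their labelled tissues the lines were SK-Mel 28 and SK-Mel 24 (skin; both melanoma lines), U251 (brain; a glioblastoma line), U2-OS (bone; an osteosarcoma line), BJ (labelled epithelial; a normal skin fibroblast line), A549 (lung; an adenocarcinoma line), Caco2 (colon; a colorectal carcinoma line), RT4 (labelled kidney; known as a bladder papilloma line) and HepG2 (liver; a liver tumour line). SK-Mel 24 was grown in medium with 15% serum and the other 8 lines in 10%. Every value describes 1 established line per tissue, and 3 base media were in use. The libraries held 15597117 to 32583547 estimated counts. Values below are TPM (a transcript level scaled for its length and for the library) with the SD over 3 libraries, or log2 fold changes between lines from the counts. In the count fit a mean of the other 8 lines was taken over their log levels. Lines with very low levels pull it down, so a line called higher need not exceed the plain average of the others.

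In Notch signalling a receptor on one cell is bound by a Jagged or Delta-like ligand on a neighbouring cell. The bound receptor is cleaved by an ADAM protease and then by gamma-secretase, and the released intracellular part enters the nucleus, where it joins the DNA-binding protein RBPJ and a Mastermind coactivator at target genes. HES1, the best known target, encodes a transcriptional repressor that also represses its own gene. JAG1, JAG2, DLL1 and DLL4 activate receptors on neighbouring cells, whereas DLL3 is a divergent ligand that acts mainly inside the cell and does not activate them.

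RBPJ is known to bind the letters TGGGAA, best when they are preceded by G (GTGGGAA), and the promoter of HES1 holds both forms close together. The window from RefSeq (GRCh38.p14, chr3:194135898-194136197, plus strand; 250 bases before to 50 after the start) is shown because HES1 is the readout of the pathway among the 10 genes, with matches in capitals.
HES1: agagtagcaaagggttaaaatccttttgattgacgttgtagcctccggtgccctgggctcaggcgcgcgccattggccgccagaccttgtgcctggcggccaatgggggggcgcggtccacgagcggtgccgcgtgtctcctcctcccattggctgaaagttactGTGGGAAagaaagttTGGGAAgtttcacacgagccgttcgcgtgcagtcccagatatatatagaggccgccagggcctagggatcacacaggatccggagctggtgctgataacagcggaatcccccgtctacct
The letters GTGGGAA began 85 bases before the start and TGGGAA began 70 bases before it, both on the gene's strand, with 8 bases between them. Either strand of GTGGGAA occurred in 6.25% of 35116 promoter windows and either strand of TGGGAA, which GTGGGAA contains, in 24% of them. Among the 8 family members with a window in the table, HES1 alone held either form. Stretches around GTGGGAA from 3 other target genes are set beside it, from HES4 (chr1:1000141-1000201, minus strand), HES5 (chr1:2530311-2530371, minus strand) and HEY2 (chr6:125749601-125749661, plus strand).
HES4: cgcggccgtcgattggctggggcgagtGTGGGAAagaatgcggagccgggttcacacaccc
HES5: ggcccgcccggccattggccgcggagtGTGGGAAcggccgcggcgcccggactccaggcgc
HEY2: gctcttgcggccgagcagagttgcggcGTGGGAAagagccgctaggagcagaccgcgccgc
On the gene's strand the match began 77 bases before the start in HES4, 81 bases before it in HES5 and 4 bases before it in HEY2. The windows of HES5 and HEY2 also held the reverse TTCCCAC, 224 and 213 bases before the start. Of the 5 other targets with a window, 4 held GTGGGAA or its reverse TTCCCAC. A match of letters is a description of the window and not a measured binding site.

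Several checks bear on all levels. Melanocyte markers summed to 11627 to 16581 TPM in SK-Mel 28, to 7009 to 9697 TPM in SK-Mel 24 and to 1.3 to 27.8 TPM in the other lines. In SK-Mel 24 nearly all of the sum was S100B (7822 TPM) and SOX10 (252 TPM). The pigment genes PMEL, MLANA, TYR and DCT had 8877, 1881, 444 and 427 TPM in SK-Mel 28, but 3.1, 1.08, 0.329 and 0.895 TPM in SK-Mel 24. In BJ all 6 fibroblast markers were above 1 TPM. Of the 6 epithelial markers EPCAM, CDH1 and ESRP1 were below 1 TPM in BJ, and the keratins KRT8, KRT18 and KRT19 had 34, 750.4 and 261.5 TPM there. RT4 had all 6 urothelial markers and A549 none of 6 alveolar and airway markers at 1 TPM. In U2-OS, 3 of 7 osteoblast markers were below 1 TPM, SP7, BGLAP and IBSP. HepG2 stood apart: mitochondrial genes took 71.1%, 33.8% and 32.6% of counts in its libraries, against 0.928% to 5.72% in the other 24. This lowers the deposited TPM of every other gene in HepG2. Where that changes the place of HepG2, the level is also given on another scale. This is TPM with mitochondrial genes left out, or the fitted level of the count model in CPM (counts scaled for the library but not for length). These scales can place HepG2 differently. With mitochondrial genes left out HES1 had 52.2 TPM in both HepG2 and U2-OS, but by fitted level it had 77.6 and 33.4 CPM.

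NOTCH2, the receptor that with JAG1 is mutated in Alagille syndrome, was the most abundant receptor transcript by mean TPM in 6 of the 9 lines. In HepG2, among the 6, NOTCH2 led in 2 of 3 libraries and was below 1 TPM on average. It had 62.8, 72.5 and 69.6 TPM in SK-Mel 28, and 50.7, 48.8 and 51.4 TPM in U2-OS. The libraries of these 2 lines did not overlap with each other or with any other line. Below them stood U251 (30.8 ± 7.29 TPM), BJ (26.3 ± 5.84), SK-Mel 24 (24.3 ± 1.11), A549 (19 ± 0.907), RT4 (13.6 ± 2.82), Caco2 (5.92 ± 2.5) and HepG2 (0.475 ± 0.508; SD, n = 3 each). In the count fit NOTCH2 was higher in SK-Mel 28 than in the mean of the other 8 lines by 2.29 ± 0.124 log2 units (SE; adjusted p = 3.46e-14). In the fit without HepG2 this difference was 1.69 log2 units. Over U2-OS the SK-Mel 28 difference was 0.68 ± 0.2 (adjusted p = 0.00504), which is under the 1 log2 unit asked of a call here. The 5 steps from U2-OS down through BJ, U251, SK-Mel 24 and A549 to RT4 did not pass either, with adjusted p from 0.0901 to 0.783. RT4 was then higher than Caco2 by 1.41 ± 0.204 (adjusted p = 2.37e-06) and Caco2 higher than HepG2 by 3 ± 0.228 (adjusted p = 6.07e-11).

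NOTCH2 shares sequence with partial copies on chromosome 1, of which NOTCH2NLA passed the count filter. NOTCH2NLA had 16.8 ± 0.937 TPM in RT4 and 22.9 ± 2.89 TPM in SK-Mel 28, and its ratio to NOTCH2 was 1.28 ± 0.313 in RT4 and 0.334 ± 0.021 in SK-Mel 28. How kallisto divided shared reads between them was not tested, so the NOTCH2 levels are uncertain to that extent. With the 2 genes summed, the SK-Mel 28 difference was 2.175 log2 units, a reading added after the data were seen.

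NOTCH3, a receptor best known from the smooth muscle cells and pericytes of vessels, had the widest pattern of the receptors. It had 19.7, 42 and 42.8 TPM in BJ, 12.8, 24.6 and 22.2 TPM in RT4, and 28.5, 19.4 and 8.82 TPM in U2-OS. These 3 lines overlapped. Caco2 had 7.31 ± 3.77 TPM, A549 4.62 ± 0.435, SK-Mel 24 0.872 ± 0.461, SK-Mel 28 0.538 ± 0.191, HepG2 0.148 ± 0.142 and U251 0.118 ± 0.106 (SD, n = 3 each), and the U251 value rested on 11 counts in all. Against the mean of the other 8 lines NOTCH3 was higher in BJ by 4.76 ± 0.222 log2 units (adjusted p = 1.63e-15), in RT4 by 3.95 ± 0.23 (adjusted p = 1.32e-13) and in U2-OS by 3.55 ± 0.234 (adjusted p = 2.1e-12). It fell by 6.39 ± 0.548 in U251 (adjusted p = 4.47e-10). The steps from BJ to RT4 (0.72 ± 0.365, adjusted p = 0.0967) and from RT4 to U2-OS (0.35 ± 0.364, adjusted p = 0.415) were not called.

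NOTCH1, the receptor first found through a translocation in T-cell leukaemia, was highest in SK-Mel 24, with 15.4, 10.1 and 9.56 TPM. The next line, U2-OS, had 6.45, 5.11 and 2.23 TPM, and RT4 had 3.02, 4.37 and 5.17 TPM, so SK-Mel 24 did not overlap with any line. U251, A549 and BJ lay between 2.84 and 3.31 TPM on average, Caco2 at 1.18 ± 0.643, SK-Mel 28 at 0.622 ± 0.4 and HepG2 at 0.0209 ± 0.0069 TPM (SD, n = 3 each). SK-Mel 24 was above the other 8 lines' mean by 2.85 ± 0.232 log2 units (adjusted p = 1.34e-10), and higher than the next line by fitted level, RT4, by 1.21 ± 0.379 (adjusted p = 0.00848). From RT4 down through U2-OS, BJ and U251 to A549 no step between neighbours was called. A549 was higher than Caco2 by 1.3 ± 0.39, Caco2 higher than SK-Mel 28 by 1 ± 0.402, and SK-Mel 28 higher than HepG2 by 2.56 ± 0.559, which held 19 NOTCH1 counts.

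NOTCH4, known mainly from vascular endothelium, reached 0.256 ± 0.13 TPM in U2-OS and at most 0.151 ± 0.0164 TPM in the other lines. It did not pass the count filter, and no fold is given. In U2-OS a retained-intron transcript of 1632 bases had 0.204 TPM, and the coding transcript of 6745 bases had 0.029 TPM. Endothelial markers were also low, at 0.349 to 15 TPM summed over 6 genes in the 27 libraries. CDH5 was below 1 TPM in each line. Of the other 5 markers, SK-Mel 24 had 5.77 TPM of TIE1, 3.57 of KDR and 1.36 of TEK, PECAM1 reached 1.97 TPM in HepG2 and 1.16 in Caco2, KDR 1.28 in U251 and VWF 1.02 in RT4.

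**Figure D1:**
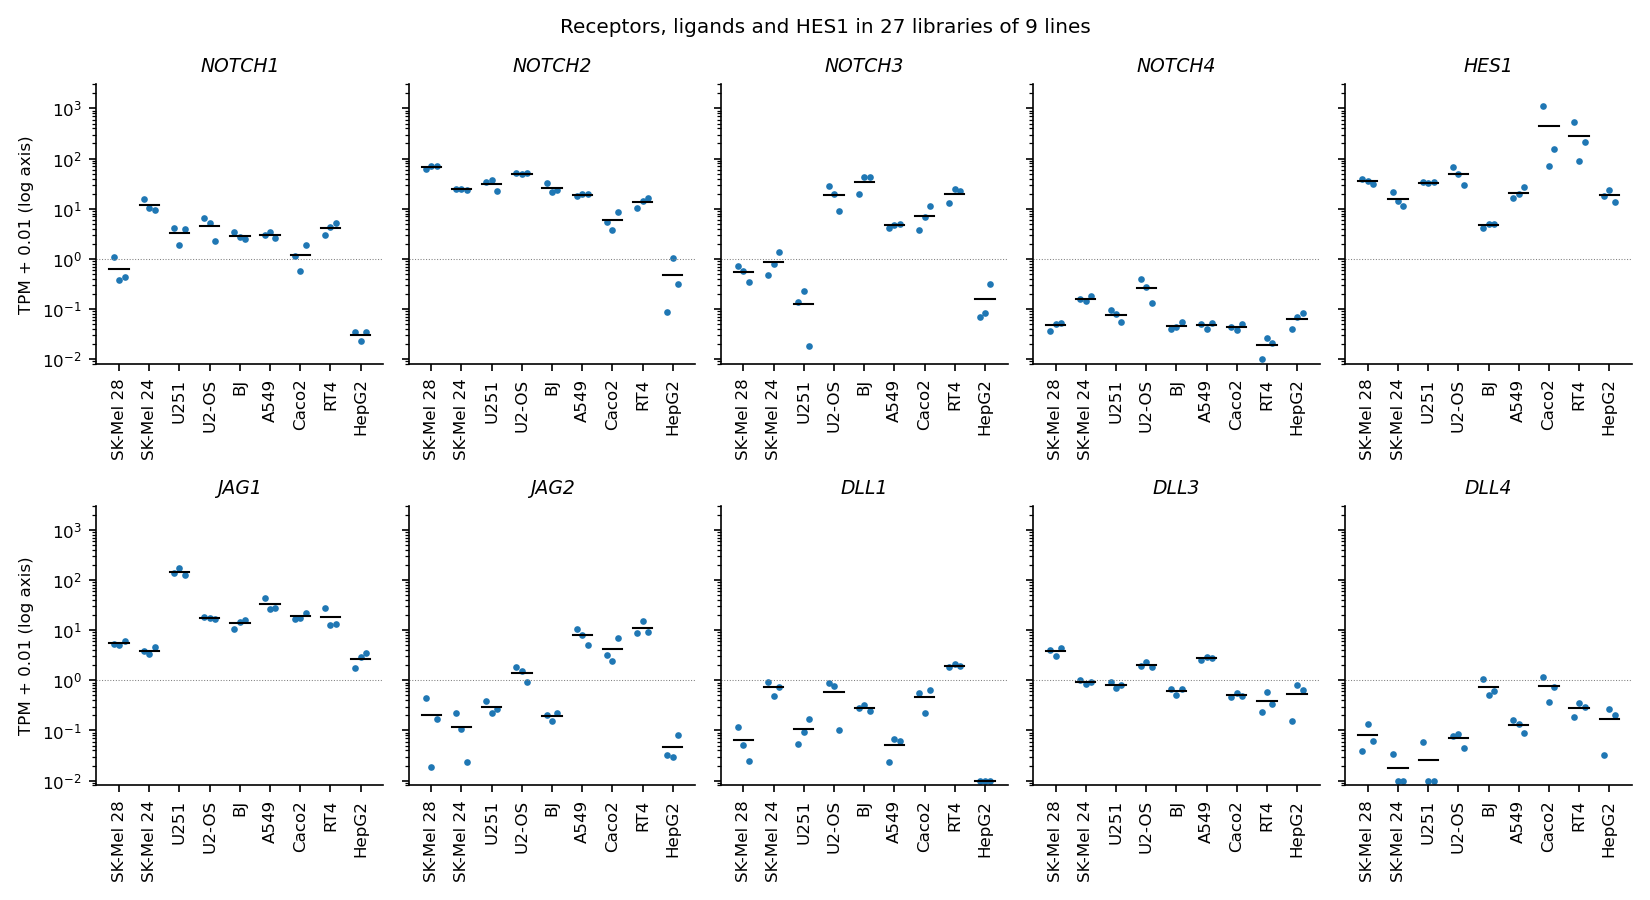
Level of each of the 10 genes as TPM + 0.01 on a log axis, with a point per library, a bar at the mean of the 3 libraries of a line and a dotted line at 1 TPM. NOTCH2 is above 1 TPM in all libraries of 8 lines, JAG1 is highest in U251, and the HES1 points of Caco2 and RT4 are spread far more widely than those of the other lines.

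The receptor mix differed between lines. NOTCH2 made 98.2 ± 0.934% of summed receptor TPM in SK-Mel 28 and 89.3 ± 4.78% in U251. In SK-Mel 24 NOTCH1 made 31.2 ± 5.66% beside 65.9 ± 4.6% for NOTCH2. NOTCH3 had the higher mean in 3 lines, BJ (53.3 ± 15.7% of the sum), RT4 (52.2 ± 4.32%) and Caco2 (49.8 ± 12.7%), and it led in all 3 RT4 libraries but in 2 of 3 in BJ and in Caco2. Summed receptor TPM was highest in U2-OS (74 ± 11.7), SK-Mel 28 (69.5 ± 4.49) and BJ (64 ± 7.07), and was 0.698 ± 0.499 TPM in HepG2, or 1.45 ± 0.618 with mitochondrial genes left out.

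The lead of NOTCH3 depended on short transcripts. The longest coding transcript of NOTCH3 (8666 bases) had 18.5 ± 8.26 TPM in BJ, and a coding transcript of 559 bases had 10.4 ± 4.44 TPM. In counts, which do not divide by length, the short transcript held 2.1% of NOTCH3 in BJ and the long one 96.3%. In RT4 the long transcript had 11.5 ± 1.87 TPM and the short one 7.1 ± 3.5 TPM. For NOTCH2 a transcript of 11389 bases carried 95% to 99.5% of its TPM in the 8 lines other than HepG2. When each receptor was read from its longest coding transcript alone, NOTCH2 had the highest mean in all 9 lines, at 25.9 ± 5.73 TPM beside 18.5 ± 8.26 for NOTCH3 in BJ and 12.9 ± 2.57 beside 11.5 ± 1.87 in RT4. This reading was added after the data were seen. In it NOTCH2 led in 2 of 3 libraries in BJ and in Caco2, and had 0.186 ± 0.111 TPM in HepG2.

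**Figure D2:**
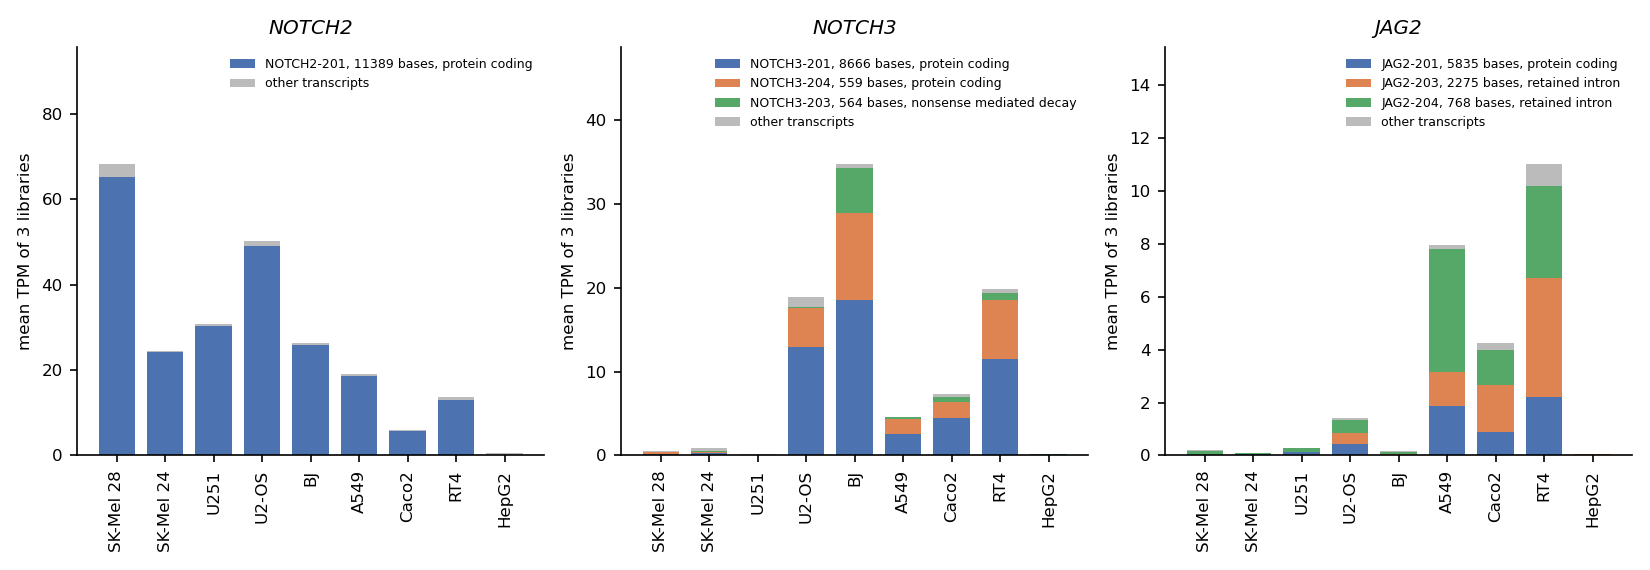
Mean TPM of 3 libraries by line for NOTCH2, NOTCH3 and JAG2, stacked by transcript, with the length and annotated type of each named transcript in the legend. The longest coding transcript makes nearly all of NOTCH2 outside HepG2, 18.5 of 34.8 TPM of NOTCH3 in BJ, and 2.2 of 11 TPM of JAG2 in RT4.

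JAG1 was the most abundant ligand transcript in all 9 lines. U251 had 139, 171 and 129 TPM, and the next line, A549, had 44.3, 26.1 and 27.2 TPM. Each U251 library was above every other library of the series. Caco2 (19 ± 3.05 TPM), RT4 (18.1 ± 8.77), U2-OS (17.5 ± 0.912) and BJ (13.7 ± 2.71) followed, then SK-Mel 28 (5.47 ± 0.524), SK-Mel 24 (3.89 ± 0.597) and HepG2 (2.69 ± 0.885; SD, n = 3 each). With mitochondrial genes left out HepG2 had 8.43, 5.22 and 6.16 TPM, against 5.87, 5.55 and 6.58 TPM in SK-Mel 28 and 4.08, 3.53 and 4.83 TPM in SK-Mel 24. In the count fit HepG2 was called higher than SK-Mel 28 by 1.13 ± 0.236 (SE; adjusted p = 0.000159) and than SK-Mel 24 by 1.66 ± 0.24 (adjusted p = 1.28e-06). JAG1 was higher in U251 by 3.545 ± 0.131 log2 units than in the mean of the other 8 lines (adjusted p = 5.04e-17) and by 2.23 ± 0.238 than in A549 (adjusted p = 2.47e-08). The A549 step to Caco2 was 0.61 ± 0.23 (adjusted p = 0.0262), under 1 log2 unit, and the steps on through RT4, BJ and U2-OS to HepG2 had adjusted p from 0.249 to 0.894. JAG1 fell by 1.76 ± 0.201 in SK-Mel 28 and by 2.36 ± 0.212 in SK-Mel 24 (adjusted p = 4.76e-08 and 8.19e-10), each against the mean of the other 8 lines. Its share of summed ligand TPM was 99.2 ± 0.227% in U251 and lowest in RT4, at 55.5 ± 15.6%, where JAG2 was above it in 1 of 3 libraries.

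JAG2, the other Jagged ligand, was high in few lines. RT4 had 8.62, 15.1 and 9.38 TPM, A549 had 10.7, 8.14 and 5.06 TPM, and Caco2 had 3.24, 2.44 and 7.1 TPM. A549 overlapped with both RT4 and Caco2, which did not overlap with each other, and all 9 of these libraries were above every library of the other 6 lines. U2-OS followed with 1.4 ± 0.451 TPM, and the remaining 5 lines were at 0.286 TPM or below. Against the mean of the other 8 lines the difference was 4.57 ± 0.294 log2 units in RT4, 3.45 ± 0.312 in A549 and 2.85 ± 0.327 in Caco2 (adjusted p = 9.79e-13, 1.01e-09 and 4.99e-08). Much of the level came from annotated retained-intron transcripts, of which those of 2275 and 768 bases had 4.51 ± 1.14 and 3.47 ± 2.65 TPM in RT4; the coding transcripts together had 2.85 ± 0.704 TPM. These 3 lines were also those with the highest summed epithelial markers, from 4303 to 12508 TPM. The other 6 lines had 80.1 to 1975 TPM. In A549 most of the sum was KRT8 (5449 TPM) and KRT18 (5611 TPM). CDH1 (40.6 TPM) and KRT19 (345.9 TPM) were also higher in A549 than in each of the other 6 lines. ESRP1 and EPCAM were not: A549 had 0.07 TPM of ESRP1 beside 28.2 in SK-Mel 28, and 8.7 TPM of EPCAM beside 46.8 in HepG2. The part of epithelial character in the JAG2 result was not tested.

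The Delta-like ligands stayed low. DLL1 had 1.84, 2.12 and 1.91 TPM in RT4, above all other libraries, and at most 0.917 TPM elsewhere, in SK-Mel 24. HepG2 held no DLL1 count in 3 libraries, which allows up to 3 counts or a level of 0.0787 CPM (by non-mitochondrial counts) over the group, so RT4 was at least 50.7-fold higher. Contrasts that average over HepG2 cannot be estimated well for this gene; in a fit without HepG2, DLL1 was higher in RT4 than in the mean of the other 7 lines by 3.67 log2 units (adjusted p = 7.53e-10), in SK-Mel 24 by 1.41 and in Caco2 by 1.35. In the same fit it fell by 2.51 in A549 (adjusted p = 0.00112), by 2.27 in U251 (adjusted p = 0.00234) and by 2.1 in SK-Mel 28 (adjusted p = 0.00305). RT4 was higher than the next line, SK-Mel 24, by 1.96 ± 0.533 (adjusted p = 0.0031).

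DLL3, a gene of embryonic somites and of neuroendocrine tumours, had 3.95, 3.05 and 4.36 TPM in SK-Mel 28, above every other library. A549 had 2.72 ± 0.205 TPM, U2-OS 2.02 ± 0.256 and the other 6 lines 0.92 TPM or less. HepG2, at 0.53 ± 0.344 TPM, had 1.1 ± 0.373 TPM with mitochondrial genes left out, beside 2.15 ± 0.274 TPM in U2-OS. By fitted level HepG2 instead followed SK-Mel 28 and A549, at 2.48 CPM beside 2.11 CPM in U2-OS. Against the mean of the other 8 lines DLL3 was higher in SK-Mel 28 by 1.89 ± 0.19 log2 units (adjusted p = 5.03e-09) and in A549 by 1.365 ± 0.199 (adjusted p = 2.68e-06). The step from SK-Mel 28 to A549 was not called (0.47 ± 0.287, adjusted p = 0.173), and no step from a line to its neighbour was called for this gene. The coding DLL3 transcript of 2055 bases carried 3.345 ± 0.757 TPM in SK-Mel 28 and the longer one of 2332 bases 0.445 ± 0.144 TPM.

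DLL4, a ligand of sprouting vessels, had its highest levels in Caco2, with 1.16, 0.354 and 0.724 TPM, and in BJ, with 1.06, 0.502 and 0.602 TPM. On deposited TPM both lines were above the libraries of the other 7, at up to 0.341 TPM. With mitochondrial genes left out HepG2 had 0.107, 0.458 and 0.35 TPM, which overlapped with Caco2 at 1.25, 0.391 and 0.778 TPM. The differences from the mean of the other 8 lines were 3.3 ± 0.347 in BJ and 3.06 ± 0.344 in Caco2 (adjusted p = 1.11e-08 and 3.35e-08), and the step from BJ to Caco2 was not called (0.21 ± 0.481, adjusted p = 0.892). DLL4 was also called higher in HepG2 by 1.98 ± 0.427 (adjusted p = 0.000226) and in RT4 by 1.715 ± 0.388 (adjusted p = 0.000536), and neither BJ nor Caco2 was called higher than HepG2 (adjusted p = 0.0505 and 0.114). The BJ and Caco2 values rested on 99 and 121 counts, and SK-Mel 24 and U251 had 1 count each.

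**Figure D3:**
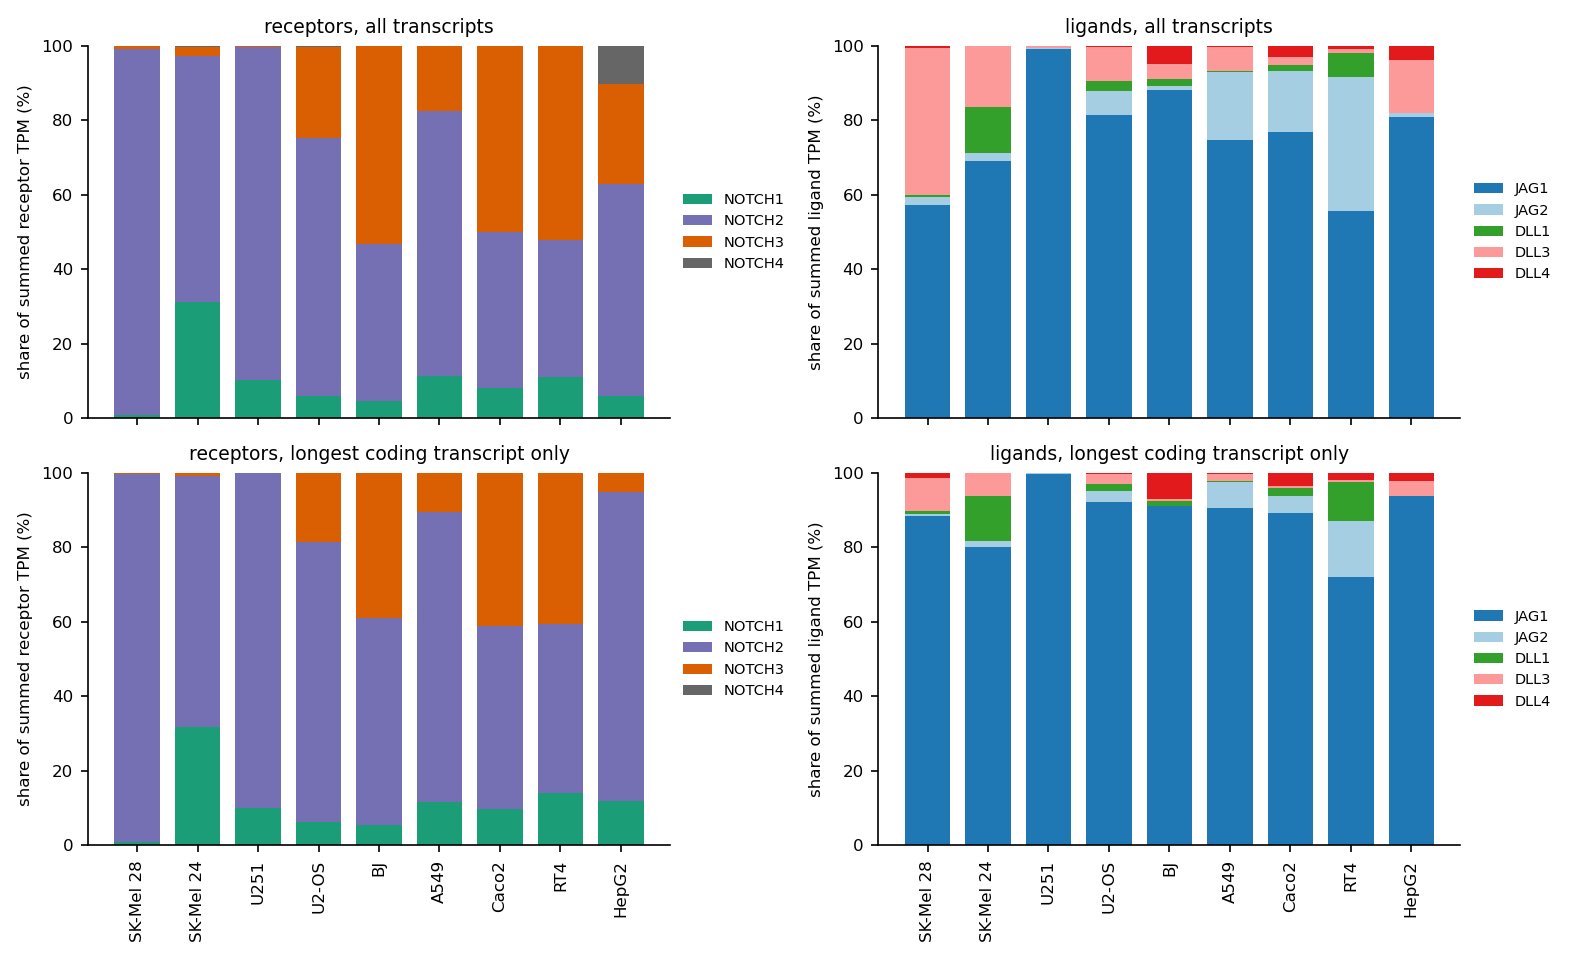
Mean share of each gene in the summed TPM of the 4 receptors (left) and of the 5 ligands (right) by line, for all transcripts (top) and for the longest coding transcript of each gene (bottom). NOTCH2 fills 98.2% of the receptor bar of SK-Mel 28 and JAG1 99.2% of the ligand bar of U251, and NOTCH3 no longer leads in any line in the lower panel.

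HES1 was highest in Caco2 and RT4, but with very unlike libraries. Caco2 had 1092, 69.7 and 154 TPM and RT4 had 540, 90.4 and 216 TPM. On deposited TPM these 6 libraries were the highest of the series, with the lowest of them just above the highest elsewhere, 68.7 TPM in U2-OS. With mitochondrial genes left out HepG2 had 89.7, 42.8 and 24 TPM, and its first library was then above the lowest Caco2 library, at 77.1 TPM. U2-OS had 48.9 ± 19.8 TPM, SK-Mel 28 35.5 ± 4.72, U251 33.3 ± 0.307, A549 21 ± 5.21, HepG2 18.5 ± 5.19, SK-Mel 24 15.7 ± 5.21 and BJ 4.71 ± 0.502 (SD, n = 3 each). By fitted level HepG2 followed Caco2 and RT4, at 77.6 CPM, above U2-OS at 33.4 CPM, a step that was not called (adjusted p = 0.103). The highest library was 15.7 times the lowest in Caco2 and 5.98 times in RT4, while over 44 sets of a gene and a line with at least 1 TPM in each library the median was 1.58 and the next highest 3.23. With mitochondrial genes left out the ratios were 15.3 in Caco2, 6.14 in RT4 and then 3.74 in HepG2, a reading added after the data were seen.

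In the count fit HES1 was above the other 8 lines' mean by 3.66 ± 0.371 log2 units in Caco2 (adjusted p = 5.77e-09) and by 3.37 ± 0.376 in RT4 (adjusted p = 3.03e-08). A single library set the size in Caco2: without library 1 the difference was 1.74 (adjusted p = 0.000292). The lowest RT4 value over all alternatives was 2.26. The step from Caco2 to RT4 was not called (0.26 ± 0.644, adjusted p = 0.771), and RT4 was higher than HepG2 by 2.06 ± 0.673 (adjusted p = 0.00935). HES1 fell by 3.5 ± 0.667 in BJ (adjusted p = 8.13e-05) and by 1.88 ± 0.58 in SK-Mel 24 (adjusted p = 0.00822), and the SK-Mel 24 call was lost with the P number as covariate (adjusted p = 0.0595). The call of higher HES1 in HepG2 (1.05 ± 0.45, adjusted p = 0.0426) and that of lower HES1 in A549 (-1.39 ± 0.554, adjusted p = 0.0376) were lost under several alternatives, with adjusted p up to 0.462 and 0.147.

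Other target genes did not follow 1 order of lines. HEY1, a repressor of the same class, had 75.6, 75 and 72 TPM in SK-Mel 28, with SK-Mel 24 next at 12.2 ± 3.83 TPM and U251 at 9.34 ± 1.69. NRARP, a feedback inhibitor of the receptor complex, had 14.9, 6.48 and 7.42 TPM in Caco2 and at most 2.22 TPM in any library of another line. HEYL had 2.74 ± 0.116 TPM in A549 and 1.47 ± 0.537 in Caco2, and 0 counts in SK-Mel 28, SK-Mel 24 and U251. HES4 had 4.93 ± 3.16 TPM in Caco2 and 0 counts in U2-OS, and by fitted level it was highest in HepG2, at 3.62 CPM beside 2.49 CPM in Caco2. HEY2 had at most 1.15 ± 0.337 TPM, in SK-Mel 28, and HES5 had 3 counts in all. Of the 5 targets tested over the 9 lines, 19 of 45 tests were called higher and 5 lower, beside 20.3% and 13.6% of all gene and line tests. HEYL, HEY2, HES4 and NRARP had a fitted level of 0 in some lines. Contrasts that average over those lines cannot be estimated well, so these counts of calls are not read as a result about the targets.

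In the Caco2 library with 1092 TPM of HES1, 3 other targets also had the highest of the 3 Caco2 values: NRARP at 14.9 TPM, HES4 at 7.9 TPM and HEY1 at 2.08 TPM. The RT4 library with 540 TPM had the highest RT4 values of the same genes, with 2.22 TPM of NRARP, 1.82 TPM of HES4 and 6.83 TPM of HEY1. HEYL had its lowest RT4 value there, at 0.308 TPM, and the middle Caco2 value, at 1.31 TPM. These libraries were picked after their HES1 values were seen, and both have the P number 7 in their titles, a number whose meaning is not stated. The U2-OS library with that number was also the highest of its line for HES1, at 68.7 TPM. The HepG2 library with it was the highest on deposited TPM, at 23.8 TPM, but not with mitochondrial genes left out, at 42.8 TPM beside 89.7 TPM in the library with the P number 4, and the part of the P number was not tested apart from its use as a covariate. JAG1 in RT4 was also highest in the library with 540 TPM of HES1, at 28.2 TPM against 12.8 and 13.3 TPM in the other RT4 libraries. All receptors and the other ligands, by contrast, had their lowest RT4 values in that library. In Caco2 the library with 1092 TPM of HES1 had the lowest JAG1 of its line, at 17.07 TPM against 17.40 and 22.51 TPM.

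**Figure D4:**
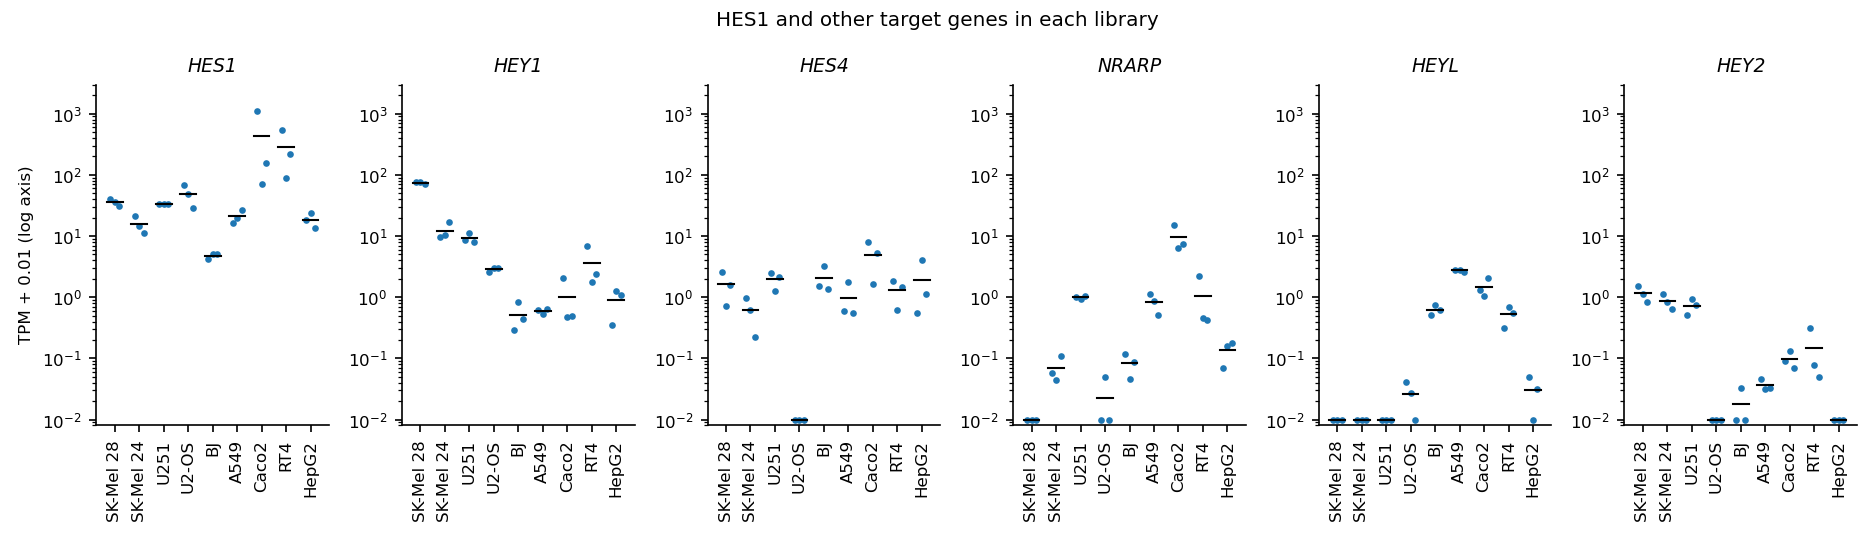
Level of HES1 and of 5 other target genes as TPM + 0.01 on a log axis, with a point per library in the order of library numbers and a bar at the mean of each line. The first point of Caco2 and of RT4 is the highest of its line for HES1, HEY1, HES4 and NRARP, and HEY1 is highest in SK-Mel 28.

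HES1 was also set beside the receptors and ligands across the 9 line means. On the log2(TPM + 1) scale Pearson's r was -0.045 and Spearman's rho 0.067 with summed receptors, and 0.286 and 0.433 with summed ligands. Of the 9 single receptors and ligands JAG2 had the highest r, 0.658 with a rho of 0.717. It was singled out for that after the values were seen. The other 8 ran from -0.228 for DLL3 to 0.55 for DLL1. For JAG2 r was 0.884 without the 2 lines farthest from its median, RT4 and A549. Caco2, at 4.26 TPM of JAG2, was then far above the next line, U2-OS at 1.4 TPM. By the same rule r rose from 0.178 to 0.661 for NOTCH3 and from 0.227 to 0.674 for DLL4. For DLL1 it fell from 0.55 to 0.468. With mitochondrial genes left out, a scale added after the data were seen, r and rho with JAG2 were 0.608 and 0.483, and with summed receptors -0.261 and -0.133. These are descriptions over 9 lines that share 1 library preparation, and the HES1 means of Caco2 and RT4 rest on widely spread libraries. BJ, with the highest NOTCH3, had the lowest HES1.

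Over the 9 lines every tested member differed, as did 98.3% of all 17220 genes tested, so the count is that of nearly any gene. Among the 81 tests of 9 members in 9 lines against the mean of the other 8, 29 (35.8%) were called higher and 23 (28.4%) lower, beside 20.3% and 13.6% of all gene and line tests. A call asked for an adjusted p under 0.05 and at least 1 log2 unit. The median member difference was 0.105 log2 units, over all 81 tests. These tests, and the counts by line below, include DLL1. Its contrasts all draw on HepG2, which had no DLL1 count, and cannot be estimated well. Without HepG2, 20 of the 27 higher calls in the other 8 lines stayed and 7 were lost, among them NOTCH2 and NOTCH1 in U2-OS, NOTCH2 in BJ and NOTCH1 in RT4. Sizes moved too. NOTCH2 in SK-Mel 28 went from 2.29 to 1.69, NOTCH1 in SK-Mel 24 from 2.85 to 2.27 and NOTCH3 in BJ from 4.76 to 4.24. JAG1 in U251 stayed at 3.53, while DLL4 in BJ rose from 3.3 to 3.61 and HES1 in Caco2 from 3.66 to 3.94. In the 36 pairs of lines, 222 of 324 member tests (68.5%) were called, against 43.3% of all gene and pair tests, and 18 of the 72 steps between neighbouring lines were called. NOTCH3 was called in 31 pairs, the most of the 9 genes, and DLL3 and HES1 in 21 each, the fewest.

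By line, the called members were 2 of 9 higher and 4 lower in SK-Mel 28 (all genes, 20.3% and 13.4%), 2 and 5 in SK-Mel 24 (19% and 11.2%), 1 and 3 in U251 (15% and 11.6%), and 4 and 0 in U2-OS (25.3% and 10.9%). They were 3 and 2 in BJ (20.1% and 13.1%), 4 and 1 in A549 (18.4% and 10.8%) and 5 and 2 in Caco2 (19.8% and 13.9%). In RT4, 6 of 9 members were called higher, NOTCH1, NOTCH3, JAG2, DLL1, DLL4 and HES1, beside 18.6% of all genes, and DLL3 was called lower, beside 14.2%. In HepG2, 5 of 9 were called lower, NOTCH1, NOTCH2, NOTCH3, JAG2 and DLL1, beside 23.5% of all genes, and HES1 and DLL4 higher, beside 25.8%. NOTCH2 fell by 5.02 ± 0.228 log2 units there and NOTCH1 by 4.84 ± 0.495 (adjusted p = 6.99e-16 and 4.14e-09). Long transcripts as a whole were lower in HepG2: the median difference was -0.63 log2 units over 1352 genes with a longest transcript above 8000 bases and 0.28 over 3757 genes of up to 2000 bases. In the same classes the medians were 0.53 and -0.08 in U2-OS, where NOTCH1, NOTCH2 and NOTCH3 were called higher. In Caco2 they were -0.34 and 0.13. NOTCH2 and NOTCH3 belong to the class above 8000 bases. The part of transcript length in these results was not tested.

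**Figure D5:**
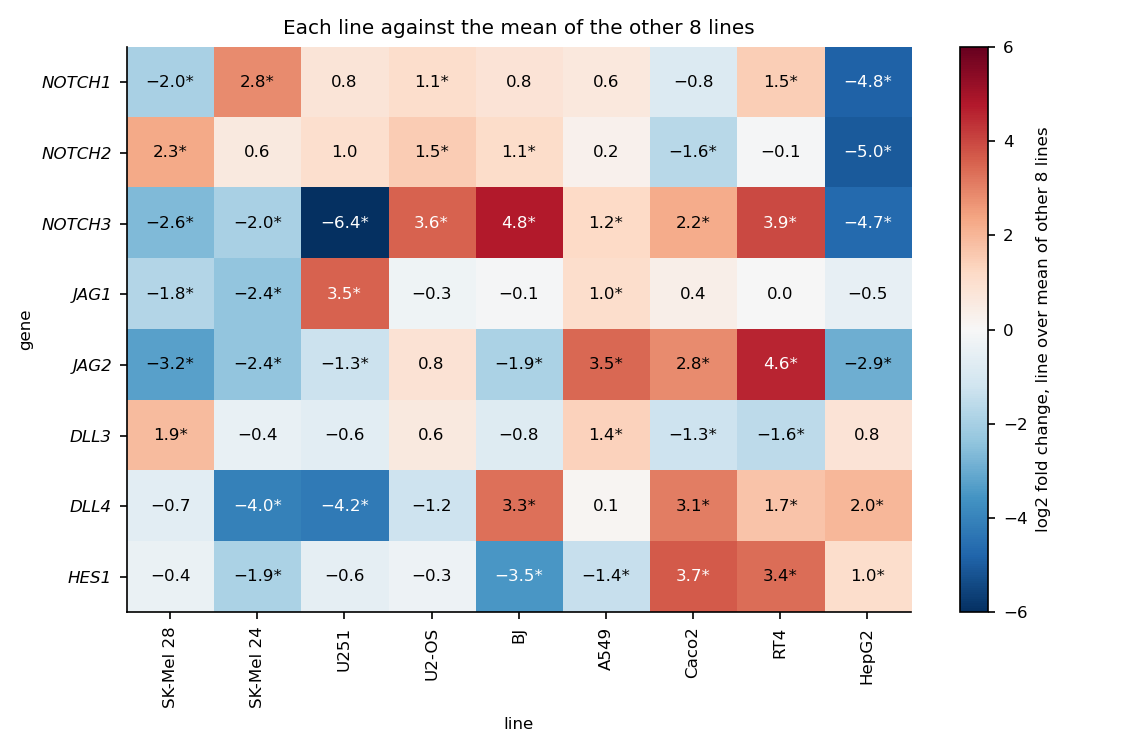
Log2 fold change of each line over the mean log level of the other 8 lines for 8 genes, with red for higher, blue for lower and an asterisk for a call. DLL1 is left out because HepG2 has no DLL1 count. All 3 receptors shown are called lower in HepG2, JAG1 is called higher in U251 at 3.545, and NOTCH3 spans -6.39 in U251 to 4.76 in BJ.

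The 2 melanoma lines had different receptors and ligands. SK-Mel 28 had 1.08, 0.364 and 0.418 TPM of NOTCH1, against 15.4, 10.1 and 9.56 TPM in SK-Mel 24, and SK-Mel 28 had 62.8, 72.5 and 69.6 TPM of NOTCH2, against 24.8, 25.1 and 23.1 TPM in SK-Mel 24. Neither gene overlapped between the lines. NOTCH1 fell by 4.27 ± 0.435 log2 units in SK-Mel 28 relative to SK-Mel 24 (adjusted p = 1.28e-08), and NOTCH2 rose by 1.5 ± 0.203 (adjusted p = 1.22e-06). DLL3 rose by 2.07 ± 0.307 (adjusted p = 4.62e-06) and DLL1 fell by 3.085 ± 0.663 (adjusted p = 0.000504), with 9 counts in SK-Mel 28 and 66 in SK-Mel 24. DLL4 had 12 counts in SK-Mel 28 and 1 in SK-Mel 24, a ratio of 10.6 per non-mitochondrial count with an exact 95% interval for counting error alone of 1.57 to 455. Its call (3.01 ± 0.97, adjusted p = 0.0127) was lost without library 2 of SK-Mel 24 (adjusted p = 0.0766) or of SK-Mel 28 (adjusted p = 0.151).

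These 5 of 9 members called stood beside 32% of all genes; 3 were higher in SK-Mel 28 (all genes, 15.5%) and 2 lower (16.5%). NOTCH3, JAG1, JAG2 and HES1 did not pass, and for HES1 SK-Mel 28 had 35.5 ± 4.72 TPM and SK-Mel 24 15.7 ± 5.21 TPM without overlap (1.3 ± 0.67, adjusted p = 0.116). The HES1 difference was called when library 1 of Caco2 was left out of the shared fit (1.3, adjusted p = 0.0326). HEY1 rose by 2.64 ± 0.451 in SK-Mel 28 (adjusted p = 2.97e-05) and HES6, another gene of the HES group, by 1.75 ± 0.423 (adjusted p = 0.00137). MAML2, a Mastermind coactivator, fell by 1.79 ± 0.235 (adjusted p = 7.46e-07), and DNER, a non-canonical ligand of neurons, by 1.02 ± 0.311 (adjusted p = 0.00868).

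Of 45 other pathway genes, 42 were tested, and 72 of 378 tests were called higher and 48 lower, which is 19% and 12.7% and near the background. They include the tests of the other target genes, with the limit given there. LFNG, a glycosyltransferase that changes which ligand a receptor favours, had 20.9 ± 8.89 TPM in U2-OS and 0.853 ± 0.311 and 0.413 ± 0.0653 TPM in SK-Mel 28 and SK-Mel 24. POFUT1, which adds the fucose that LFNG extends, had 94 ± 17.1 TPM in Caco2 and was lowest by fitted level in RT4, with 20.6 ± 3.28 TPM. The ligand ubiquitin ligases MIB1 and NEURL1B, which drive ligand uptake, were both highest in U2-OS, at 24.9 ± 4.2 and 21.2 ± 6.21 TPM. ADAM10, the protease of ligand-dependent cleavage, had 222 ± 42.2 TPM in SK-Mel 24 and ADAM17 37.4 ± 5.88 TPM in U251. Both were lowest in HepG2, at 3.74 ± 1.09 and 0.399 ± 0.102 TPM. By fitted level ADAM10 was highest in RT4, at 348.9 CPM, with 337.3 CPM in SK-Mel 24 and 64.8 CPM in HepG2. ADAM17 had 99.8 CPM in U251 and 4.32 CPM in HepG2.

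In the nucleus and in turnover the spread was again by line. MAML2 had 22.6 ± 0.44 TPM in SK-Mel 24 and 1.49 ± 0.754 TPM in Caco2. SNW1, a transcription cofactor, had 95.3 ± 1.2 TPM in U2-OS and 7.03 ± 2.95 in HepG2. By fitted level SNW1 was highest in RT4, at 105.9 CPM, with 80 CPM in U2-OS and 31.1 CPM in HepG2. DTX4, a Deltex ubiquitin ligase, had 61.1 ± 15.1 TPM in RT4 and 22 ± 7.09 in Caco2, the lines with the highest HES1, and 0.229 ± 0.0311 TPM in U251. DTX2 was highest in A549, at 24.7 ± 2.89 TPM. DLK1, a non-canonical ligand known from fetal tissues, had 103 ± 81.4 TPM in HepG2 and at most 0.0759 ± 0.132 TPM in any other line. DNER had 37.45 ± 6.53 TPM in U251, where JAG1 was also highest, and 16.8 ± 3.46 TPM in SK-Mel 24. HES6 had 28.7 ± 17.4 TPM in HepG2 and 30.95 ± 8.54 TPM in SK-Mel 28, but by fitted level HepG2 was higher, at 82.3 CPM beside 22.1 CPM, and HES2 stayed below 1 TPM on average.

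Genes with the most similar pattern over the 9 line means were ranked by Pearson's r on the log2(TPM + 1) scale among protein-coding genes that reached 10 TPM in some line. For NOTCH3 they were HOXA10 (0.98), PLXNB2 (0.978) and RPS26 (0.949). For JAG2 they were SH2D3A (0.982), POF1B (0.962) and MAP7 (0.961), and for JAG1 TMEM44 (0.939), KRT86 (0.923) and FAM149B1 (0.89). For NOTCH2 they were RHBDD1, GMPPB and RPS6KC1 (0.977 each), and for NOTCH1 CCM2 (0.949), ATP5MF (0.947) and SF3B2 (0.931). For DLL3 they were TUBB4A (0.971), IGSF11 (0.947) and PLD1 (0.938), and for DLL1 GBP4 (0.945), ARHGAP6 (0.942) and JMJD7 (0.939). Those for HES1 were DHRS13 (0.931), PRSS22 (0.926) and BMP2 (0.925). With 9 points and at least 11509 genes compared these values are descriptions. With a pseudocount of 0.1, with no minimum level or with mitochondrial genes left out (the last added after the data were seen), at least 2 of the 3 genes remained in 13 comparisons and fewer in the other 11.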

How the data were processed

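RNA was poly-A selected with a stranded mRNA kit, per the labels' protocols, and the tools listed per the submitters' processing notes are kallisto 0.43.1 and CASAVA 1.8, with GRCh38 as build; which transcript annotation was used is not stated here. The deposited tables hold, per the file headers, estimated counts (expected counts that need not be whole) and TPM made by the authors for 176241 transcripts in each of 27 libraries. Of these, 159887 were matched to GENCODE 29 and summed to 34584 genes by gene ID. The unmatched ones held 0.745% to 3.06% of counts. Gene sums of estimated counts were rounded to whole numbers and tested with edgeR 4.0.16 (R 4.3.3) in 1 fit with a coefficient per line. The settings were TMM, filterByExpr and robust quasi-likelihood F tests, on 17220 genes with Benjamini-Hochberg adjustment over all of them. All p-values named are these. SE is an approximation, back-calculated as the absolute log2 fold change over the square root of its F statistic. The biological coefficient of variation was 24.2%. A call needs an adjusted p under 0.05 and 1 log2 unit. No 2 libraries of a line agreed within sampling noise. The fit was tested on simulated data. Alternatives were DESeq2 1.42.0 as test and as size factors, no filter, no mitochondrial genes, coding transcripts only, no HepG2, the P number as covariate and each library left out. Library numbers follow accession order. Genes named beyond the members were the 2 of each pathway role with the widest range of line means, all other targets, the 3 most similar genes and the markers; members and lists were chosen with earlier results of these data known. Promoters are RefSeq windows on GRCh38.p14, read for HES1 and its related targets. Intervals and floors cover counting error only.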

Additional observations from a re-analysis of the deposited data

How the results depend on the processing

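No paired analysis was possible because the library numbers only name the 3 libraries of a line and carry no pairing across lines. Calls of members were 27 to 30 higher and 22 to 24 lower when single libraries were left out, and 36 of the 52 calls were lost under none of the alternatives or left-out libraries; members called between SK-Mel 28 and SK-Mel 24 then numbered 4 to 6. Pathway calls ran from 71 to 76 higher and 45 to 51 lower, all 9 tested members differed over the lines each time, and NOTCH2 led in 6 lines and JAG1 in 9 each time. Coding transcripts alone gave 18 lower member calls against 23, and JAG2 in its highest line, RT4, then had 2.85 TPM against 11. Without HepG2, 20 member calls were higher and 167 tests over the remaining line pairs were called; the cause was not tested. With the longest coding transcript alone, a reading added after the data were seen, NOTCH2 led in 9 lines. Of the 16 calls lost somewhere, HES1 in HepG2 was lost under 21 settings, HES1 in A549 and JAG2 in U251 under 5 each, and the rest under 1 to 3. For the fold changes of each member in its highest line and between SK-Mel 28 and SK-Mel 24 alone, 610 recomputed values kept direction and call, 2 lost the call (DLL4 between the melanoma lines) and 1 gained it (HES1 between them). DLL1, DLL4 and NOTCH4 rest on few counts, which limits their values.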
